A study of Drosophila melanogaster with 27 samples.

Results

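YFP alone, expressed in mushroom body neurons (MBNs) and pulled down from *Drosophila* head lysate, served as the control for IPs of YFP-tagged TDP-43, and its own RNA content is described here by comparing the YFP IP with the YFP input. The comparison rested on 6 of the 27 libraries, chosen by their labels as all YFP IP and all YFP input libraries, with an IP and an input from each of 3 lysates, named YFP-901, YFP-902 and YFP-201 by their labels. The flies were yw;;P[UAS-2XEYFP]AH3 (line GRYFP-5), with the UAS transgene driven by the split GAL4 line SS01276, which labels γ and α/β MBNs. They were adults of day 1 to 3, males and females in equal parts, and each lysate pooled the heads of many flies. All YFP libraries carried the same transgene, so that the input is the whole head of the same flies and not a head without YFP. The TDP-43 groups used in a later comparison carried, in a w background, UAS TDP43WT-YFP (line TDP-92) or UAS TDP43G298S-YFP (line TDP-94) and in addition UAS mCD8-RFP II, at the same age and sex mix and with the same driver, with 3 lysates each. They are called TDP43WT and TDP43G298S below. According to the methods of the study YFP alone was expressed at a far higher level than the TDP-43 fusions, and the count table holds no transgene by which this could be measured. The 3 lysates of a genotype were stated to be biological replicates, and p-values measure the spread between lysates only. That spread was estimated over the lysates of all 3 genotypes, and the main test did not pair the IP and input of a lysate.

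The mushroom body is the paired centre of the insect brain that stores odour memories. Its intrinsic neurons, the Kenyon cells, receive olfactory input in the calyx and send axons into the lobes. There dopamine acting through the receptors *Dop1R1* and *Dop1R2* sets the strength of output synapses. The *rut* adenylyl cyclase, the *dnc* phosphodiesterase and protein kinase A act downstream of *Dop1R1*. An RNA immunoprecipitation recovers RNA together with a tagged protein, here on magnetic beads coated with an anti-GFP nanobody (GFP-Trap) that also binds YFP. YFP is not an RNA-binding protein, and a pull-down of YFP alone is used to measure RNA held by beads, tube or tag. The input holds all cells of the head, in which neurons of the optic lobes, photoreceptors, glia, muscle and fat body outnumber the Kenyon cells.

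Counts assigned to genes totalled 8500688 to 15027004 in the YFP IPs and 16845284 to 24557729 in the inputs. The IPs of YFP-901, YFP-902 and YFP-201 had counts for 10260, 12017 and 13316 genes, against 12489, 12913 and 14832 genes in their inputs. Lysate YFP-201 stood apart in transcripts of organs outside the head. Genes of the male accessory gland summed to 5.39, 12.2 and 126 CPM (counts scaled to a common library size) of the library total in the IPs, against 4.16, 3.62 and 144 CPM in the inputs, in each case in the order YFP-901, YFP-902, YFP-201, which holds for all values below. The label prefix of YFP-201 differed from that of the other pair of YFP lysates and was shared with TDP-43 lysates WT-202 and G298S-203.

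Past the fold threshold more genes were higher than lower in the YFP IP. In edgeR's quasi-likelihood test on 12921 genes, with a gene called enriched or depleted at a log2 fold change (log2FC) beyond 1 in either direction and an adjusted p below 0.05, 1330 genes (10.3% of all tested) were enriched and 183 (1.42%) were depleted in the YFP IP over the input. Protein-coding genes made up 1241 of the enriched (93.3%) and 153 of the depleted ones (83.6%), beside 91.2% of all genes tested. At the adjusted p alone, without the fold threshold, 2048 genes (15.9%) lay above 0 and 1291 (9.99%) below. A log2FC above 2 was reached by 320 of the enriched genes and one above 3 by 46. Of the 183 depleted genes 40 had a fitted log2FC below −2, but their median level was 0.315 CPM and none reached 10 CPM, so that these values rest on few reads and on the prior count of the fit. Among the depleted genes 100 had a mean of at least 10 CPM, all with a log2FC between −2 and −1. The median log2FC of all genes was −0.14. The 3 IPs all lay above the 3 inputs in 2463 genes (19.1%) and all below them in 2558 genes (19.8%), and of the called genes 1255 enriched and 180 depleted ones were without overlap. Enriched genes had a median level of 16.3 CPM in the input and were long, with a median exon length of 4645.5 bases against 1761 bases for all genes tested. With the lysate as a replicate block the count of enriched genes was 1313 and that of depleted genes 400, and without lysate YFP-901 67 depleted genes were called. Without YFP-201, the lysate with transcripts of other organs, the counts were 1080 enriched and 230 depleted.

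**Figure D1:**
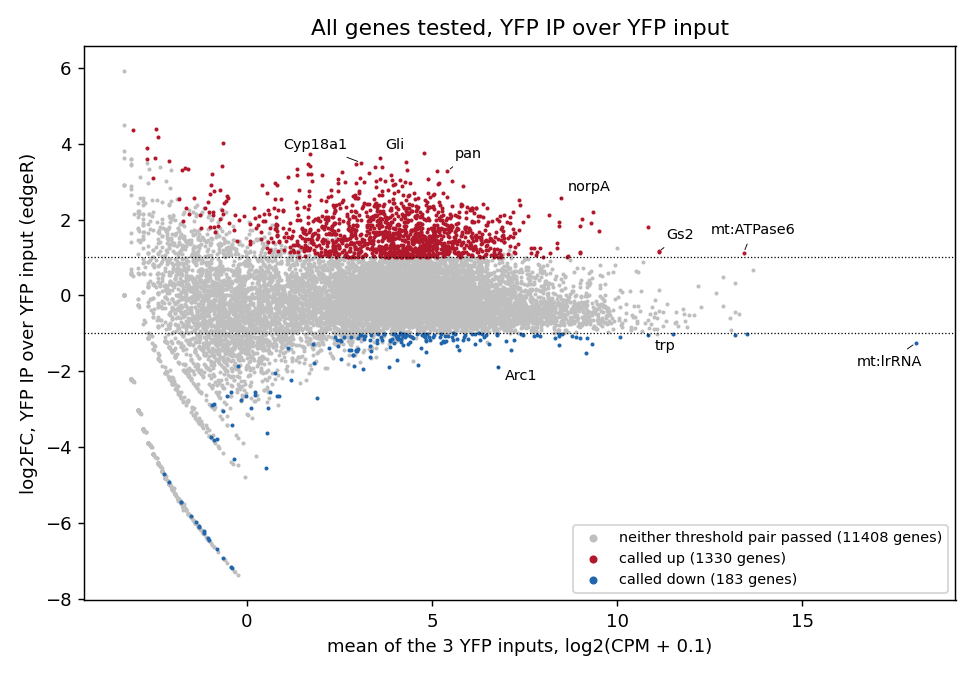
Mean level of the 3 YFP inputs (x axis, log2 of CPM with a small constant added) against the log2FC of the YFP IP over the YFP input (y axis), with 1 point for each of the 12921 genes tested and dotted lines at the fold threshold. The 1330 enriched genes (red) spread over low and high levels, and among the 183 depleted genes (blue) those with a log2FC below −2 lie at low levels.

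Leading genes had, by choice, a mean of at least 10 CPM, no overlap of IPs and inputs, and no CG or CR symbol. The largest enrichment among them was that of *Gli*, which encodes gliotactin, a transmembrane protein of tricellular septate junctions. Its level was 197, 128 and 117 CPM in the YFP IPs against 14.5, 13.2 and 8.35 CPM in the inputs (log2FC 3.62, SE 0.31, adjusted p = 2.83e-06, edgeR quasi-likelihood). The lowest IP was thus far above the highest input. *Cyp18a1*, a cytochrome P450 that inactivates ecdysone, had 112, 96.7 and 75.9 CPM in the IPs and 9.17, 8.92 and 7.12 CPM in the inputs (log2FC 3.50, SE 0.25). *IntS6*, a subunit of the Integrator complex, had 168, 104 and 114 CPM in the IPs and 15.1, 11.9 and 10.1 CPM in the inputs (log2FC 3.38). *ph-p*, a Polycomb group gene, had 72.4, 48.3 and 46.1 CPM in the IPs and 6.53, 7.04 and 4.09 CPM in the inputs (log2FC 3.24). In these 4 genes every lysate took part to a similar extent, the smallest shift of a lysate being 2.77 for *ph-p* in YFP-902. *CG34290*, known by its number only, behaved likewise with 44.6, 39.5 and 39.7 CPM in the IPs and 3.08, 3.33 and 2.99 CPM in the inputs (log2FC 3.72), although it shares exon sequence on the opposite strand with *CG6356*, and the strand setting of the counting was not given in the sources used here.

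Other strongly enriched mRNAs were much weaker in lysate YFP-902. *oc*, a homeodomain transcription factor of head and eye development, had 148, 26.4 and 77 CPM in the YFP IPs and 8.62, 9.46 and 4.61 CPM in the inputs (log2FC 3.47, SE 0.58, adjusted p = 0.000505, edgeR quasi-likelihood). Its shifts within lysates were 4.09, 1.47 and 4.04. *Myc*, the growth-promoting transcription factor, had 177, 29.7 and 71.2 CPM in the IPs and 10.7, 11.4 and 7.3 CPM in the inputs (log2FC 3.24). *pan*, the TCF factor that acts at the end of the Wnt pathway, had 693, 185 and 362 CPM in the IPs and 42.2, 49.1 and 36.7 CPM in the inputs (log2FC 3.28). *cac*, the pore-forming subunit of the presynaptic calcium channel, had 208, 64.6 and 125 CPM in the IPs and 15.8, 17.1 and 11.1 CPM in the inputs (log2FC 3.17). Absence of overlap was a condition of the choice of these 4 genes, and the IP of YFP-902 held the lowest level in each. Further members of the leading group were *Tdg* (3.51), a thymine DNA glycosylase, *Tollo* (3.41), a Toll family receptor, *ed* (3.28), an adhesion protein with immunoglobulin domains, and the transcription factors *ovo* (3.18) and *lz* (3.11), each given with its log2FC. *Tdg*, *ed*, *ovo* and *Myc* share exon sequence with a gene on the opposite strand, so that their reads cannot be assigned with certainty. The same reserve applies to *elav*, *Syx1A*, *eIF4EHP*, *Ten-a*, *trh*, *VGlut*, *rut*, *srp*, *sls*, *unc-13*, *fit*, *Yp1*, *Dredd*, *Exo70*, *Tsp42Ea* and *lncRNA:CR42862*, whose annotated exons overlap those of another gene. It also applies to *RpL13A*, *repo*, *lncRNA:CR45225*, *mt:ND4L* and *mt:ATPase6*.

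**Figure D2:**
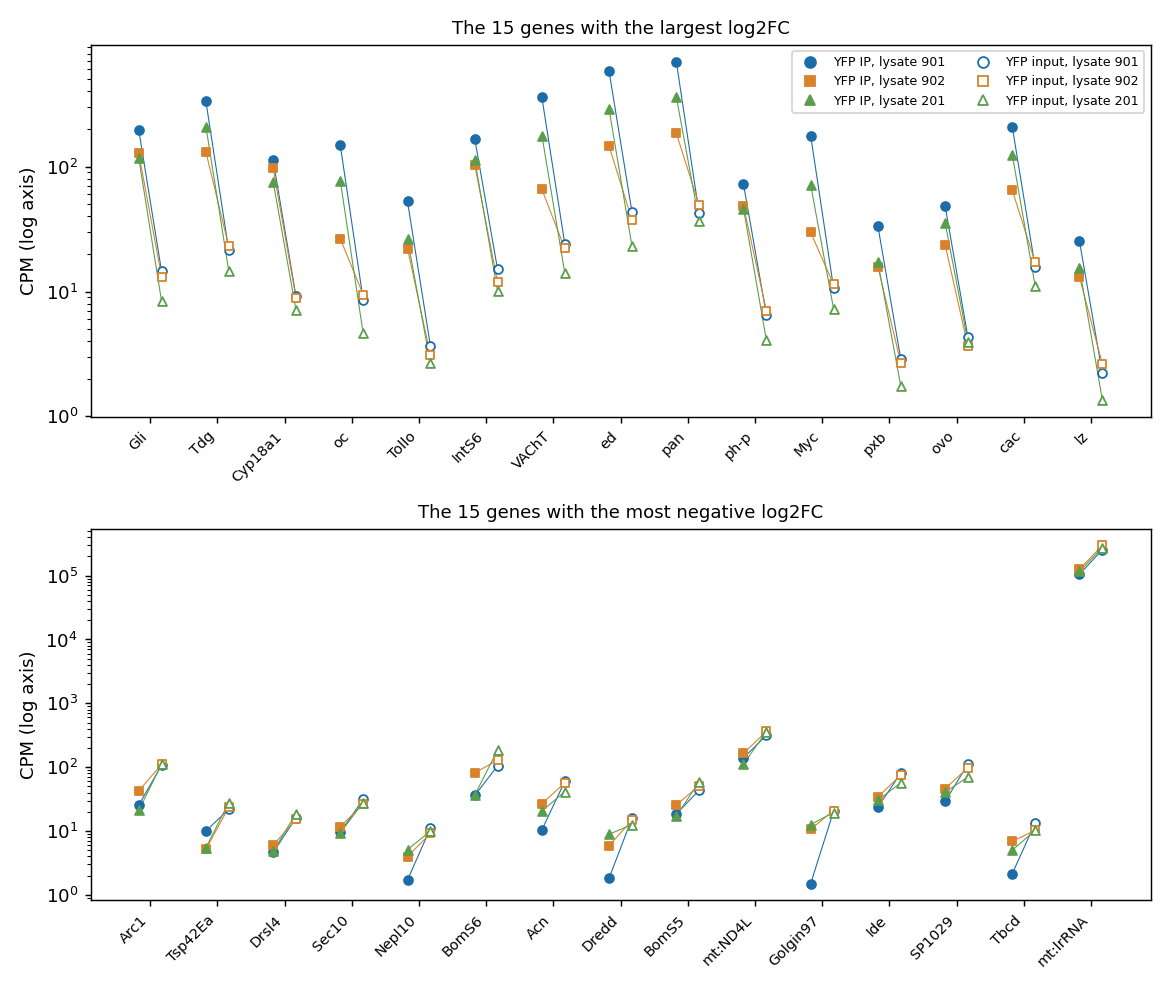
CPM (log axis) of the 15 most enriched genes (upper panel) and the 15 most depleted genes (lower panel) in the YFP IPs (filled symbols, left) and YFP inputs (open symbols, right), with a line joining the IP and input of each lysate. Enriched genes such as *Gli* (197, 128 and 117 CPM in the IPs) lie clear of their inputs, and depleted genes such as *Arc1* (25.5, 42.5 and 21.1 CPM in the IPs) lie below theirs by a smaller distance. Absence of overlap was a condition of the choice of all these genes.

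Among well expressed genes depletion was smaller in size than enrichment. *Arc1*, which encodes a Gag-derived protein that forms RNA-carrying capsids, was the most depleted of these with 25.5, 42.5 and 21.1 CPM in the YFP IPs and 107, 111 and 112 CPM in the inputs (log2FC −1.89, SE 0.29, adjusted p = 0.000269, edgeR quasi-likelihood). *Drsl4*, a drosomycin-like peptide, had 4.63, 6.03 and 4.82 CPM in the IPs and 16, 15.2 and 18.8 CPM in the inputs (log2FC −1.69). *Sec10*, a subunit of the exocyst tethering complex, had 9.58, 11.7 and 9.46 CPM in the IPs and 31.5, 26.4 and 27.9 CPM in the inputs (log2FC −1.48). In all 3 genes the inputs agreed closely, and absence of overlap with the IPs was a condition of their choice. The noncoding *lncRNA:CR42862* had 166, 226 and 207 CPM in the IPs and 717, 679 and 329 CPM in the inputs (log2FC −1.53), with a lower input in YFP-201. *BomS6*, a Toll-induced Bomanin peptide, had 36.1, 81.4 and 36.5 CPM in the IPs and 105, 129 and 185 CPM in the inputs (log2FC −1.45). Without YFP-201 its value of −1.0 no longer passed, nor did that of the tetraspanin *Tsp42Ea* (−1.59 against −1.84 with all lysates). The values for *Dredd*, the caspase of the Imd pathway (−1.36), *Golgin97*, a trans-Golgi tether (−1.28), and *Tbcd*, a tubulin folding cofactor (−1.27), passed with all lysates and not without YFP-901 (−0.88, −0.80 and −0.80), nor without YFP-902 (−1.35, −1.43 and −1.68). Leaving out YFP-201 also ended the call of *Tbcd* (−1.39).

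No gene took more counts than *mt:lrRNA*, the large ribosomal RNA of mitochondria, in any YFP library. It held 10.9%, 13.7% and 12.6% of the counts of the IPs and 24.5%, 26.9% and 25.5% of those of the inputs (log2FC −1.25, SE 0.21, adjusted p = 0.000549, edgeR quasi-likelihood). Of 26 mitochondrially encoded genes tested, 5 were enriched (19.2%) and 3 depleted (11.5%), at a median log2FC of 0.09. Of all genes 10.3% were enriched and 1.42% depleted. The subunits *mt:ND6* (log2FC 2.19) and *mt:ND5* (1.17) of complex I and *mt:ATPase6* (1.12, or 0.90 and not called without YFP-901) of ATP synthase were enriched, whereas *mt:ND4L* of complex I was depleted (−1.32). For *mt:ND6* the levels were 3293, 3350 and 2224 CPM in the IPs and 495, 679 and 769 CPM in the inputs, and for *mt:ND4L* they were 140, 165 and 112 CPM in the IPs and 315, 364 and 359 CPM in the inputs. RNAs of the same genome thus moved in both directions, and in all lysates. Annotated exons of *mt:ND4L* and of *mt:ATPase6* overlap those of other genes on the same strand, so that their reads cannot be assigned with certainty.

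Neuronal mRNAs were well represented among those the YFP IP enriched. The 12 pan-neuronal markers had a median log2FC of 1.54 beside −0.14 for all genes. Of them 7 were enriched (58.3%, against 10.3% of all genes) and none depleted (1.42% of all genes). Besides *cac* these were *para*, the voltage-gated sodium channel (log2FC 2.10), *Nckx30C*, a sodium/calcium exchanger (1.96), the RNA-binding proteins *elav* (1.88) and *fne* (1.75), *brp*, a scaffold of the active zone (1.57), and *Syx1A*, the syntaxin of vesicle fusion (1.51). The markers summed to 7144, 2412 and 4902 CPM of the library total in the IPs and to 2406, 2227 and 1592 CPM in the inputs. The sum was high in the IPs of YFP-901 and YFP-201 and close to its input in YFP-902, with list medians within lysates of 2.06, 0.30 and 1.66. Without YFP-901 the calls of *Nckx30C* (1.41), *fne* (1.02) and *Syx1A* (0.82) were lost, and 4 of the 12 markers were called.

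Ion channel mRNAs were enriched as well. Of 7 voltage-gated sodium and calcium channel genes 6 were enriched (85.7%, median 1.53), and of 10 potassium channel genes 7 (70%, median 1.37). None was depleted in either list, and of all genes 10.3% were enriched and 1.42% depleted. *eag* (2.38), *Sh* (2.32), *SK* (2.04) and *Shaw* (1.85) led the potassium channels, where each number is a log2FC. *SK*, the calcium-activated channel, had 141, 32.4 and 65.5 CPM in the IPs and 21.6, 22.5 and 14 CPM in the inputs, so that the IPs lay above the inputs with the smallest margin in YFP-902. *Shaw*, a delayed rectifier, had 34.1, 19.7 and 28.1 CPM in the IPs and 7.76, 9.57 and 5.36 CPM in the inputs. Among 10 subunits of nicotinic acetylcholine receptors, which carry fast excitation in the fly brain, 5 were enriched and none depleted (median 1.02). The strongest was *nAChRalpha1* (3.09), followed by *nAChRalpha5* (2.56) with 82, 14.2 and 36.9 CPM in the IPs and 9.79, 7.47 and 5.36 CPM in the inputs.

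mRNAs of neuronal surface proteins and of synaptic proteins were enriched in part. Of 32 DIP and dpr genes, whose immunoglobulin-domain products pair synaptic partners, 14 were enriched (median 0.90), led by *dpr8* (log2FC 2.93). Of 25 axon guidance and adhesion receptors 13 were enriched (median 1.06), among them *ed*, the cadherin *CadN* (2.74), the teneurin *Ten-a* (2.37) and the Slit receptor *robo1* (2.08). *robo1* had 87, 38.5 and 41.7 CPM in the IPs and 16, 14.7 and 9.01 CPM in the inputs, without overlap. Among 23 synaptic vesicle and active zone genes 8 were enriched (median 0.78), including *Syt7* (1.95), a calcium sensor, and *unc-13* (1.44), a priming factor. The enriched shares of 43.75%, 52% and 34.78% of the lists, beside 10.3% of all genes, were not tested against each other.

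mRNAs of receptors for Wnt ligands, peptides and amines were enriched in part, with list medians above 0 in all 3 lysates. Of 12 Wnt receptors and co-receptors 8 were enriched (66.7%, beside 10.3% of all genes) and none depleted (1.42% of all genes). Their median log2FC was 1.48, with medians within lysates of 1.68, 0.96 and 1.53. They included the LRP co-receptor *arr* (2.30), the glypican *dally* (2.05), *fz* (1.82), *fz3* (1.57) and the Ryk family receptor *drl* (1.43). *fz3* had 11.7, 9.69 and 8 CPM in the IPs and 3.69, 3.39 and 2.81 CPM in the inputs, and *drl* had 73.4, 62 and 55.5 CPM in the IPs and 24.4, 25.9 and 20.5 CPM in the inputs. Both were raised to a like extent in all 3 lysates. Of 34 receptors for neuropeptides and amines 14 were enriched and none depleted (median 0.66), led by the short neuropeptide F receptor *sNPF-R* (2.95) and the allatostatin A receptor *AstA-R1* (2.24). *Octbeta2R*, an octopamine receptor, had 139, 134 and 118 CPM in the IPs and 38.8, 41.5 and 34 CPM in the inputs (log2FC 1.77, SE 0.20, adjusted p = 2.95e-05, edgeR quasi-likelihood). None of 27 neuropeptide precursor mRNAs for their ligands was enriched or depleted (median −0.08).

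mRNAs that define transmitter use were enriched for several transmitters at once. Of 14 such genes 6 were enriched (42.9%, beside 10.3% of all genes) and none depleted (1.42% of all genes), with median log2FC 0.75. They belong to acetylcholine (*VAChT*, 3.32, and *ChAT*, 1.28), GABA (*VGAT*, 1.40), glutamate (*VGlut*, 1.15), dopamine (*ple*, 1.24) and serotonin (*trh*, 1.65). The vesicular GABA transporter *VGAT* had 158, 106 and 105 CPM in the IPs and 55.4, 48.9 and 35.6 CPM in the inputs. Tyrosine hydroxylase, encoded by *ple*, had 656, 358 and 507 CPM in the IPs and 248, 204 and 191 CPM in the inputs. Every IP exceeded every input in both genes. *VAChT* and *ChAT* share exon sequence on the same strand, which makes the split of their reads uncertain, and *VGlut* was not called without YFP-901 (0.88). Kenyon cells of the lobes use acetylcholine, and genes of other transmitters mark other neurons of the head.

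**Figure D3:**
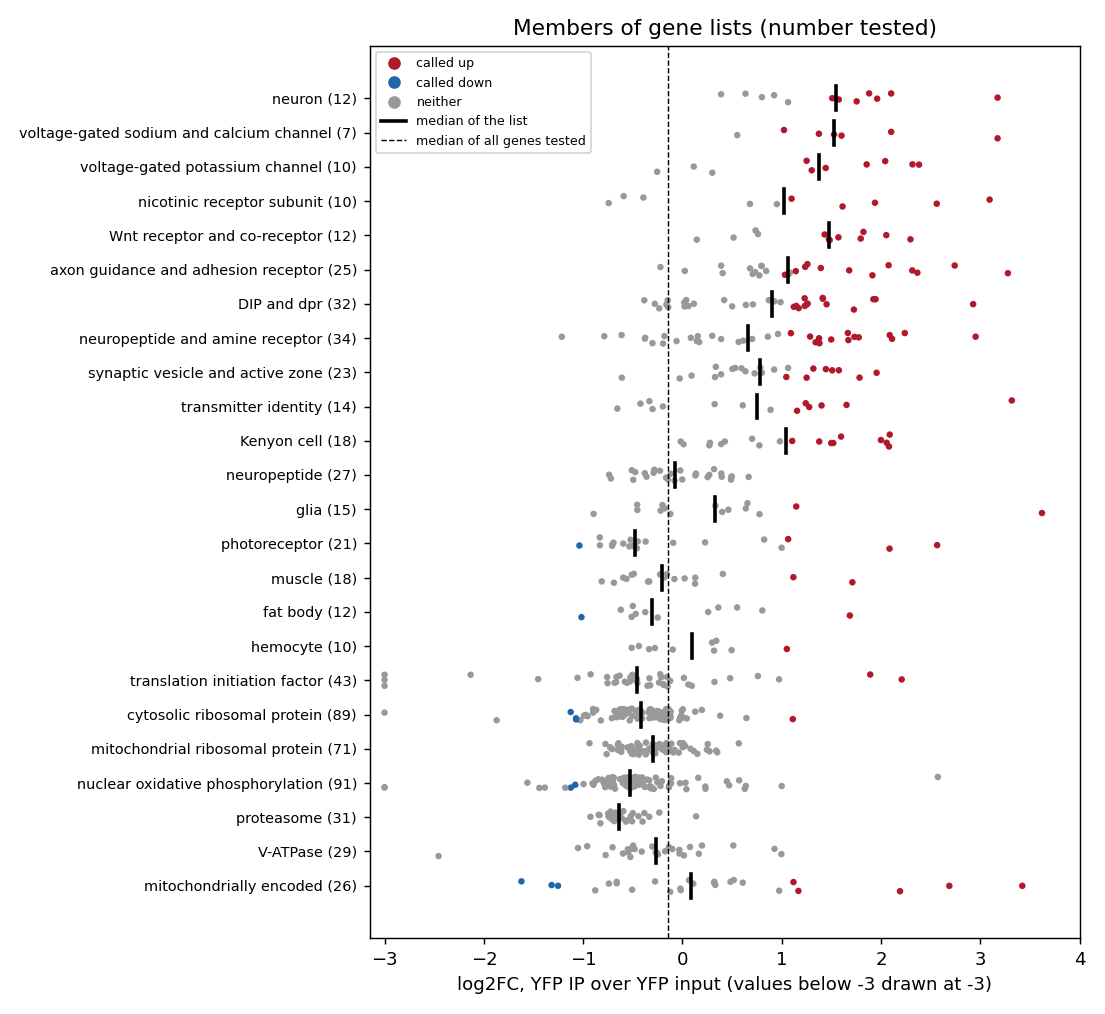
Log2FC of the YFP IP over the YFP input (x axis) for the members of each gene list (1 line per list, number tested in brackets), with enriched members in red, depleted ones in blue, the list median as a bar and the median of all genes as a dashed line. Neuronal lists such as the potassium channels (median 1.37) lie to the right, and proteasome genes (median −0.64) lie left of the median of all genes (−0.14).

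Kenyon cell markers were enriched in part. Of 18 markers 9 were enriched (50%, beside 10.3% of all genes) and none depleted (1.42% of all genes), with a median log2FC of 1.04. *Dop1R1* (2.09), the RNA-binding protein *mub* (2.08), *dnc* (2.06) and *Mef2* (2.0), a transcription factor of all Kenyon cells, led the list. *Dop1R1* had 51.8, 30.1 and 38 CPM in the IPs and 10.6, 12 and 5.71 CPM in the inputs, without overlap. *DopEcR*, a receptor for dopamine and ecdysone, had 399, 154 and 266 CPM in the IPs and 113, 109 and 68.3 CPM in the inputs (log2FC 1.5). The nuclear factor *dac* had 31, 14.3 and 22.5 CPM in the IPs and 8.31, 8.33 and 5.8 CPM in the inputs (log2FC 1.6). In all 3 the lowest IP was that of YFP-902.

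Several markers used to identify Kenyon cells did not pass. *ey*, the Pax6 factor of Kenyon cell precursors and mature Kenyon cells, had 17.4, 11.6 and 16.7 CPM in the IPs and 16.7, 16.6 and 12.3 CPM in the inputs (log2FC 0.01), so that both groups covered the same range. *prt*, a vesicular transporter of Kenyon cells, had a log2FC of −0.02, and *sNPF*, their neuropeptide, one of 0.27. *Dop1R2* had 8.61, 6.67 and 8.18 CPM in the IPs and 4.93, 5.91 and 3.65 CPM in the inputs (log2FC 0.70, adjusted p = 0.0484, edgeR quasi-likelihood), which was short of the fold threshold. Summed over the list, Kenyon markers had 3387, 1549 and 2346 CPM of the library total in the IPs and 1117, 1031 and 734 CPM in the inputs. Without YFP-901 6 of the 18 markers were called, and the values of *dnc* (1.22), *Pka-C1* (0.92) and *toy* (0.96) no longer passed. Without YFP-201 those of *rut* (1.0), *Pka-C1* (1.37) and *toy* (1.0) no longer passed, against 1.38, 1.52 and 1.10 with all lysates.

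Of 15 glial markers 2 were enriched (13.3%, beside 10.3% of all genes), *Gli* and the glutamine synthetase *Gs2*, which had 5117, 4917 and 4725 CPM in the IPs and 2338, 2191 and 2143 CPM in the inputs (log2FC 1.15). The defining glial factor *repo* did not pass (0.40), and the list median was 0.33. Of 21 photoreceptor markers 3 were enriched (14.3%) and 1 was depleted, at a median of −0.48, and at the adjusted p alone 9 lay below 0, against 9.99% of all genes. *norpA*, the phospholipase C of the visual cascade, had 3225, 1127 and 1964 CPM in the IPs and 434, 411 and 224 CPM in the inputs (log2FC 2.56), and the diacylglycerol kinase *rdgA* had a log2FC of 2.08. The main rhodopsin *ninaE* had 6843, 6863 and 7653 CPM in the IPs and 9375, 10049 and 10410 CPM in the inputs (log2FC −0.48, adjusted p = 0.0876). Genes of the same photoreceptor pathway thus stood on both sides of 0. The channel gene *trp* was called depleted at −1.04, and not without YFP-902 (−0.97).

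Markers of muscle (11.1% enriched), fat body (8.33%) and hemocytes (10%) had shares near the 10.3% of all genes. Of 18 muscle markers the giant sarcomere proteins *bt* (log2FC 1.71) and *sls* (1.12) were enriched, and their calls were lost without YFP-901 (1.55 and 1.22) and without YFP-201 (1.51 and 0.78). That of *sls* was also lost without YFP-902 (1.39). Of 12 fat body markers *fit* was enriched (1.69) and the yolk protein *Yp1* depleted (−1.02), and neither was called without YFP-901 (1.65 and −0.97). *fit* was not called without YFP-902 (1.54), nor *Yp1* without YFP-201 (−0.97). Of 10 hemocyte markers the GATA factor *srp* was enriched, with 24.8, 22.6 and 27 CPM in the IPs and 12.9, 14.2 and 8.92 CPM in the inputs (log2FC 1.05). Its call was lost without YFP-901 (1.10) and without YFP-201 (0.80). None of the members tested for antenna (11), accessory gland (13), testis (15), midgut (13) and ovarian follicle cells (13) was enriched or depleted. These lists lay near the floor, with median input levels of 2.52, 3.39, 2.31, 0.853 and 2.80 CPM in the same order. With the lysate as a replicate block 3 testis genes and 1 midgut gene were depleted, beside 400 of all 12921 genes. Testis and follicle cell genes summed to 0 CPM in the IP of YFP-901.

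Housekeeping lists had medians below 0 and few calls, beside 10.3% enriched and 1.42% depleted among all genes. Of 89 cytosolic ribosomal protein genes 1 was enriched (1.12%) and 3 were depleted (3.37%), with a median log2FC of −0.41. At the adjusted p alone 19 were below 0, against 9.99% of all genes. In YFP-902, however, 51 of the 89 lay above the input, with list medians within lysates of −0.64, 0.05 and −0.66. The 31 proteasome genes had a median of −0.64, with none called and 23 below 0 at the adjusted p alone. The 91 nuclear genes of oxidative phosphorylation had a median of −0.53 with 2 depleted, and 26 below 0 at the adjusted p alone. *RpL13A*, a protein of the large ribosomal subunit, was among the depleted ones (log2FC −1.07), and not without YFP-201 (−0.82). The cap-binding repressor *eIF4EHP* (2.21) was enriched among 43 translation initiation factor genes, whose median was −0.46. *Atpalpha*, the sodium pump of neurons and glia and the most abundant enriched nuclear mRNA, had 9906, 3501 and 5674 CPM in the IPs and 2087, 2041 and 1332 CPM in the inputs (log2FC 1.81).

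Developmental regulators were numerous at the top of the ranking, which led to the choice of 5 further lists after the values were seen; their counts are a description only. Of 42 developmental transcription factors 24 were enriched (57.1%, beside 10.3% of all genes) and none depleted (1.42% of all genes), with median log2FC 1.32. The enriched ones included *oc*, *pan*, *Myc*, *NfI* (3.05), *Blimp-1* (3.03), *klu* (2.97), *Kr* (2.96) and *ct* (2.95). *Kr*, a gap gene also used in photoreceptors and neurons, had 16.8, 8.94 and 11.7 CPM in the IPs and 1.72, 1.94 and 1.14 CPM in the inputs. *Blimp-1*, an ecdysone-induced repressor, had 209, 82.6 and 140 CPM in the IPs and 20.8, 19.2 and 12.8 CPM in the inputs. Both were low in the input and several times higher in each IP. Of 17 Polycomb group genes 5 were enriched (29.4%), among them *ph-p* and *Psc* (1.34). *IntS6* was the only member called of 13 Integrator subunits (7.69%). Of 8 exocyst subunits *Sec10* and *Exo70* were depleted, the call of *Exo70* (−1.05) being lost without YFP-901 (−0.77). Of 28 Bomanin and antimicrobial peptide genes 2 were enriched (7.14%) and 3 depleted (10.7%).

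Among the called genes the lysates agreed in direction more than in size. These genes were called on the same 3 lysates, so that a shared direction follows in part from the choice. Of the 1330 enriched genes 1274 were higher in the IP of every lysate, but 614 passed a log2 shift of 1 in each, and in YFP-902 50 had a shift of the opposite sign. The median shift of the enriched genes was 1.82 in YFP-901, 1.06 in YFP-902 and 1.75 in YFP-201. The largest of the 3 shifts was that of YFP-901 in 718 enriched genes, that of YFP-201 in 493 and that of YFP-902 in 119. For the depleted genes the medians were −1.75, −1.03 and −1.06, and 182 of 183 were lower in the IP of every lysate. YFP-902 thus had the smallest median shift in both directions.

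Exon length moved with enrichment. The share of enriched genes was 3.68%, 4.32%, 3.74%, 7.70% and 31.9% from the shortest to the longest quintile of genes by exon length. Across genes the rank correlation of exon length and log2FC was 0.28, and within lysates it was 0.22, −0.00058 and 0.41, a description over genes that share libraries. Many neuronal genes are long, with a median exon length of 9632.5 bases for the pan-neuronal list and 5348.5 bases for the Kenyon list, against 1393 bases for proteasome genes and 916 bases for ribosomal proteins. After the trend on length was removed from each library, in a fit with the lysate as a block, the pan-neuronal list had a median of 0.54 with 2 members enriched, the Kenyon list 0.43 with 3, the sodium and calcium channels 0.09 with 2 and the potassium channels 0.29 with 3. The nicotinic subunits had 0.40 with 2, axon guidance and adhesion receptors 0.10 with 5, synaptic genes 0.23 with 2 and peptide and amine receptors 0.23 with 9. The Wnt receptors (1.33 with 7) and the transcription factors (0.93 with 19) changed less, beside a median of −0.06 for all genes. That fit called 1056 of all 12921 genes enriched, beside which the list counts are to be read. In that fit *sls* had a log2FC of −1.06, *bt* of −0.03 and *unc-13* of −0.27, all of opposite sign, and the calls of *dnc* (0.32), *mub* (0.68), *Dop1R1* (0.78), *Sh* (0.42), *brp* (0.21) and *elav* (0.54) were among those lost. The part of RNA length, or of fragmentation, in the enrichment was not tested.

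**Figure D4:**
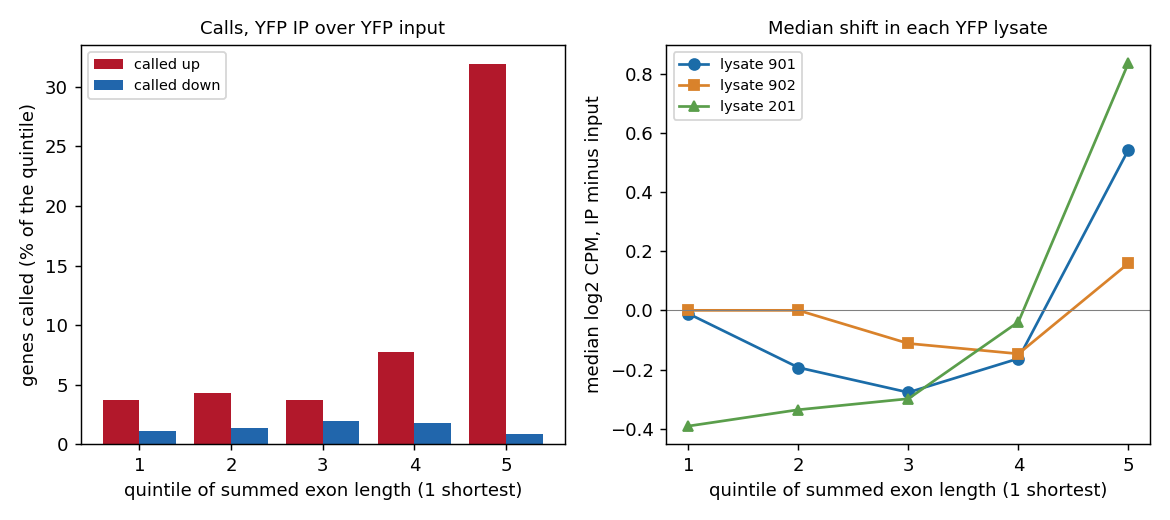
Share of genes enriched (red bars) and depleted (blue bars) in the YFP IP over the YFP input by quintile of exon length (left panel), and the median log2 CPM of the IP minus that of the input in each lysate (right panel). The enriched share is 3.68% in the shortest quintile and 31.9% in the longest, and the lysate medians of the longest quintile are 0.54, 0.16 and 0.84 in YFP-901, YFP-902 and YFP-201.

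Genes of chromosome 4, which is small and largely heterochromatic, were enriched in 34 of 100 cases (34%), beside 10.3% of all genes. None was depleted, beside 1.42% of all genes, a share too small to set apart from none among 100. Among genes in the longest quintile 25 of 50 on chromosome 4 were enriched (50%), against 797 of 2521 on the other arms (31.6%). On the X chromosome 288 of 2014 genes were enriched (14.3%, beside 10.3% of all genes). In the longest quintile the share was 38.7% on the X and 29.7% on the autosomal arms. These shares are descriptions of one contrast, and neighbouring genes are not independent.

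The unbound fraction, the lysate left after the beads were removed, differed less from the input than the IP did. In the fit to all 27 libraries, in which 13349 genes were tested, edgeR's quasi-likelihood test called none enriched (0%) and none depleted (0%) in the unbound fraction over the input, with 648 genes at an unadjusted p below 0.05, and DESeq2 called 26 enriched and none depleted. The IP over the unbound fraction had 758 enriched (5.68%) and 196 depleted genes (1.47%), or 381 and 80 without YFP-901. These comparisons share libraries with that of IP over input, so that their values are set side by side only. Some strongly enriched genes had an unbound level near the input, namely *Gli* with a log2FC of unbound over input of 0.10, *ph-p* with −0.02 and *CG34290* with −0.11, while *oc* (1.38), *Myc* (1.36) and *VAChT* (1.02) were higher in the unbound fraction too. Of the lists, 6 of 12 Wnt receptors, 9 of 34 neuropeptide and amine receptors, 3 of 18 Kenyon markers, 2 of 12 neuronal markers and none of 23 synaptic genes were enriched over the unbound fraction. Neuronal lists were also raised in the unbound fraction. Their median log2FC over the input was 0.73 (pan-neuronal), 0.60 (potassium channels), 0.56 (synaptic), 0.37 (Kenyon) and 0.14 (Wnt receptors), beside −0.10 for all genes. For IP over unbound the medians were 0.67, 0.54, 0.24, 0.52 and 1.07 in the same order, beside −0.12 for all genes. The rank correlation of exon length with the log2 ratio across genes was 0.35 for unbound over input and 0.14 for IP over unbound.

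The last comparison asks where the YFP pull-down differed from those of TDP-43, by the log2 enrichment with YFP minus the mean of those with TDP43WT and TDP43G298S, which share no library with YFP. Higher with YFP were 45 genes (0.348%) and lower 126 (0.975%) in edgeR's quasi-likelihood test. The count of 45 was 11 without YFP-901, 2 without YFP-201, 149 without WT-502, 12 without WT-505, 27 without WT-202, 27 without G298S-503, 12 without G298S-506 and 9 without G298S-203. That of 126 was 70 without YFP-901, 55 without YFP-902 and 72 without G298S-506. With other scalings these shares of 0.348% and 0.975% became 0.549% and 0.906% (DESeq2's size factors), 0.0619% and 3.92% (library sizes alone) or 1.76% and 1.04% (DESeq2). Both YFP-901 and YFP-902 carry a label prefix that no TDP-43 lysate has, so that genotype and prefix cannot be told apart for them.

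Kenyon cell genes accounted for several of the lower values. Of the 18 Kenyon markers 4 were lower with YFP and none higher, beside 0.975% and 0.348% of all genes. *Dop1R2* had 8.61, 6.67 and 8.18 CPM in the YFP IPs, whereas it had 124, 141 and 101 CPM in the TDP43WT IPs and 70.9, 105 and 83.3 CPM in the TDP43G298S IPs, with at most 8.18 CPM in any of the 9 inputs (difference −3.32, adjusted p = 3.8e-05, edgeR quasi-likelihood). *ey* had 17.4, 11.6 and 16.7 CPM in the YFP IPs, against 55.3, 94 and 79.7 CPM with TDP43WT and 63.4, 65.7 and 66.3 CPM with TDP43G298S (difference −2.01, adjusted p = 0.0011). *Dop1R1* had 51.8, 30.1 and 38 CPM in the YFP IPs, against 679, 594 and 489 CPM with TDP43WT and 396, 446 and 330 CPM with TDP43G298S (difference −2.2). In all 3 the YFP IPs lay far below every TDP-43 IP. These levels are not set against the inputs, whereas each difference is. For *Dop1R1* the gap between the IPs exceeded the difference of −2.2 over the inputs. Between genotypes, whose lysates hold different flies, differences in the number of Kenyon cells and in RNA per cell cannot be told apart in such bulk libraries. Association of these mRNAs with TDP-43 was not tested apart from either. The list as a whole had median log2 enrichments of 1.04 with YFP, 1.75 with TDP43WT and 1.05 with TDP43G298S. The glypican *dlp* (difference −2.53) and the dopamine receptor *Dop2R* (−2.09) were also lower with YFP.

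None of the 12 pan-neuronal markers passed the test of the difference, at list medians of 1.54 with YFP, 0.65 with TDP43WT and 0.41 with TDP43G298S, and the Wnt receptors had medians of 1.48, 1.51 and 1.40 in the same order. *Gli* had 197, 128 and 117 CPM in the YFP IPs, 143, 72 and 67.6 CPM in the TDP43WT IPs and 157, 126 and 120 CPM in the TDP43G298S IPs. The mRNA was thus abundant in every IP, whichever protein was pulled down. Of 34 receptors for neuropeptides and amines 1 was higher with YFP and 3 were lower, and of 13 Integrator subunits, a list chosen after the values were seen, 1 was higher and 2 were lower. Among all genes 0.348% were higher and 0.975% lower. Some higher values with YFP went with lower inputs. *AstA-R1* had 136, 80.9 and 91.4 CPM in the YFP IPs, 114, 65.7 and 66.6 CPM in the TDP43WT IPs and 100, 63.2 and 91 CPM in the TDP43G298S IPs, but its inputs were 26.4, 21.8 and 17.3 CPM with YFP, 44.6, 62 and 36.3 CPM with TDP43WT and 54.6, 51.9 and 51.4 CPM with TDP43G298S (difference 1.51). The IPs of the genotypes thus overlapped and the YFP inputs were the lowest. Of the 15 glial markers 2 were higher with YFP, *nrv2* (1.31), a subunit of the sodium pump, and *Eaat1* (1.07), a glutamate transporter. When each of the 9 lysates was left out in turn, *AstA-R1* lost its call in 7 cases, *Eaat1* in 8 and *nrv2* in 1, that without YFP-201 (1.22). *Dop1R2*, *ey*, *Dop1R1*, *dlp* and *Dop2R* lost it in 0 of 9 cases.

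**Figure D5:**
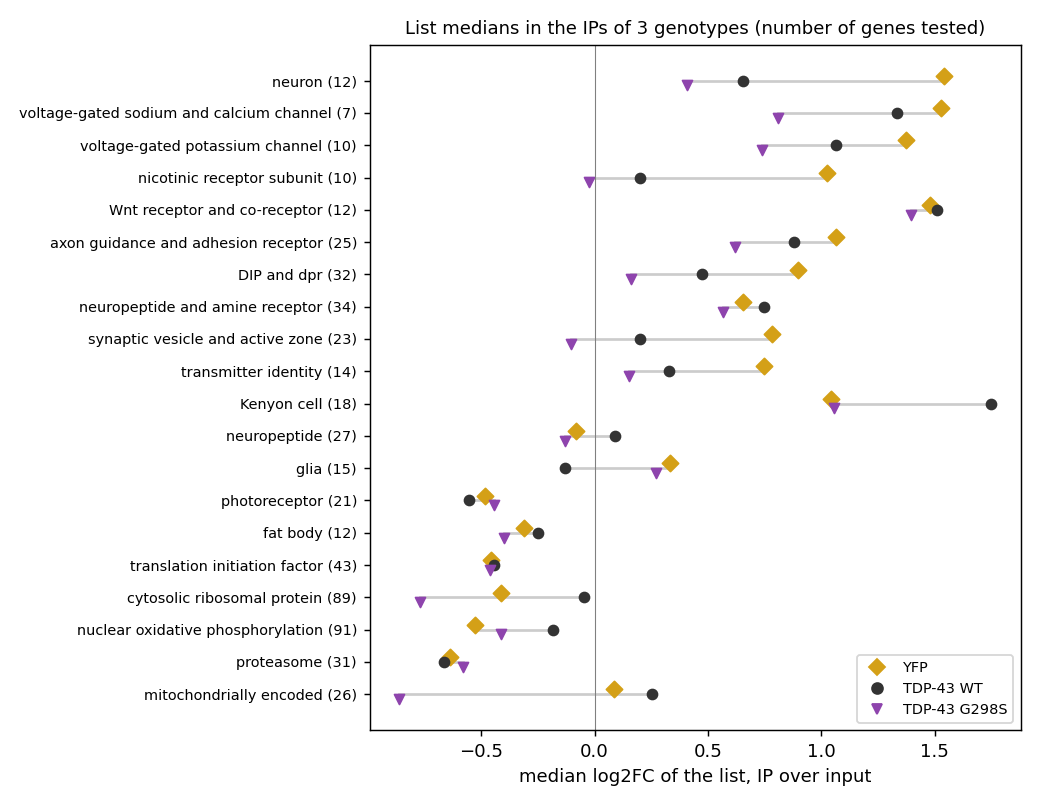
Median log2FC of IP over input (x axis) for each gene list (number tested in brackets) with YFP (diamonds), TDP43WT (circles) and TDP43G298S (triangles). The Wnt receptors have medians of 1.48, 1.51 and 1.40 in this order, while the pan-neuronal markers have 1.54, 0.65 and 0.41.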

How the data were processed

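RNA from YFP IP, input and unbound fractions of 3 head lysates was sequenced after SMART-Seq HT PLUS amplification. The authors trimmed reads (cutadapt 2.7), aligned them with STAR 2.6.1d, counted them per gene with featureCounts 1.6.3 and deposited the raw counts as a table of 27 libraries. The genome build, annotation and strand setting are not given in the sources used here. Symbols, chromosomes and exon lengths came from Ensembl release 115, which matched 17425 of 17529 identifiers.

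Counts were tested with edgeR 4.0.16 in R 4.3.3 (TMM scaling, edgeR's filter on low counts, quasi-likelihood fit to 18 IP and input libraries in 6 groups, no covariate), with Benjamini-Hochberg adjustment over all genes tested. The CPM of single genes use TMM library sizes, those of list sums the library total. Log CPM per lysate had a prior count of 2. The model was tested on simulated data.

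An input and IP of the same number come from the same lysate, and after subtraction of group means their log CPM correlated across genes at 0.48, 0.34 and 0.73 in YFP-901, YFP-902 and YFP-201. The replicate block was an alternative.

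Named genes were the 15 annotated genes with the largest log2FC in each direction (mean of at least 10 CPM, without overlap), the 5 largest differences from TDP-43 in each direction, and members of the gene lists. Single genes of those lists were picked with their values known. The samples, lists and tests were all chosen with earlier results of these data known. Alternatives were DESeq2 1.42.0, other scalings and filters, the block, removal of a trend on exon length (loess, span 0.5), glmTreat, the unbound reference and leaving out each lysate. Reads have no molecular identifiers, and the spread between lysates served as the error of every test.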

Additional observations from a re-analysis of the deposited data

Results flagged for a closer look

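The YFP enrichment differed from the mean of the TDP-43 enrichments, by a test of the difference itself (edgeR quasi-likelihood), in 45 genes that were higher and 126 that were lower with YFP. The largest positive log2 differences were those of *CG1979* (3.26), *kairos* (2.07), *pAbp* (2.03), *CNMaR* (1.64) and *mt:lrRNA* (1.62). *pAbp*, the poly(A)-binding protein, had 809, 207 and 471 CPM in the YFP IPs, 406, 492 and 453 CPM in the TDP43WT IPs and 338, 293 and 460 CPM in the TDP43G298S IPs. Its inputs were 936, 923 and 664 CPM with YFP, 2391, 3349 and 1966 CPM with TDP43WT and 3276, 3027 and 2853 CPM with TDP43G298S. The groups overlap in the IPs and are apart in the inputs.

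The most negative fitted differences were those of *PH4alphaNE1* (−6.08), *lncRNA:CR45225* (−4.87), *lncRNA:CR44017* (−4.57), *CG13924* (−4.12) and *CG18213* (−3.97). They depend on the prior count, since the 3 YFP IPs together held at most 6 reads of any of these genes. Better covered genes of the lists that were lower with YFP were *Dop1R2* (−3.32), *dlp* (−2.53), *prt* (−2.49), *Dop1R1* (−2.2), *Dop2R* (−2.09), *ey* (−2.01) and *dpr5* (−1.72), and genes of the lists that were higher were *AstA-R1* (1.51), *caps* (1.35), *nrv2* (1.31) and *Eaat1* (1.07). When each of the 9 lysates was left out in turn, the calls of *CG1979*, *pAbp* and *CNMaR* were lost in 5 cases, those of *kairos*, *AstA-R1* and *caps* in 7, that of *Eaat1* in 8, that of *dpr5* in 4, that of *mt:lrRNA* in 2 and that of *nrv2* in 1. The difference stayed between 1.32 and 1.68 for *AstA-R1* and between 1.56 and 2.44 for *pAbp*.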

How the results depend on the processing

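Over the named genes, 1280 values of IP over input kept direction and call, 90 lost the call and 14 turned. The 1330 enriched and 183 depleted genes became 379 and 3 with glmTreat against a log2FC of 1, and 758 were enriched over the unbound fraction. Depleted genes numbered 52 with library sizes alone, 345 in the fit to all 27 libraries, 400 with the replicate block, 427 with the block and the length trend removed, and 120 with the 6 YFP libraries alone. Leaving out a lysate gave 999 to 1438 enriched and 67 to 230 depleted. With library sizes alone, the median of all genes moved up by 0.20 on the log2 scale. Genes near 0 that turned were *prt* (0.19 with library sizes alone, 0.17 with block and length trend, −0.22 to 0.25 without a lysate), *nrv2* (0.073 with library sizes alone, −0.22 to 0.0029 without a lysate) and *ey* (−0.0024 without the filter, −0.035 without mitochondrial and rRNA genes, −0.072 with all 27 libraries, −0.12 with block and length trend, −0.20 to 0.25 without a lysate). With block and length trend *bt* (−0.035), *sls* (−1.06) and *unc-13* (−0.27) turned.

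For the difference from TDP-43, the share of genes higher with YFP (0.348%) became 1.76% with DESeq2, 0.549% with its size factors, 0.0619% with library sizes alone, 1.75% with at least 10 counts in every library, 0.209% without mitochondrial and rRNA genes, 0.03% with all 27 libraries, 0.588% with block and length trend, 0.503% with the block and 0% with glmTreat. The share of lower genes (0.975%) became 3.92% with library sizes alone, 1.45% with all 27 libraries, 1.79% with block and length trend and 0.124% with glmTreat. Without a lysate the shares were 0.0152% to 1.14% higher and 0.416% to 1.11% lower. DESeq2 put 26 genes of the unbound fraction above the input. Over the unbound fraction, 2424 were enriched and 40 depleted with library sizes alone, 696 depleted with the block, and 381 to 648 enriched and 80 to 277 depleted without a lysate. The cause of these shifts was not tested.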
